A study of Mus musculus with 18 samples.

Results

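The genes described here encode neuropeptides and the receptors that read them in mouse striatum. They are the tachykinin precursors Tac1 and Tac2 with the receptors Tacr1 and Tacr3, cholecystokinin (Cck) with its receptor Cckbr, neurotensin (Nts), the CART peptide precursor Cartpt, and the peptide PACAP (Adcyap1) with its receptor Adcyap1r1. Members were chosen by gene symbol, through the Ensembl identifiers of the deposited count table, and all 10 were found among its 55421 genes. That rule uses no measured value. Striatal RNA came from 18 mice between 12 and 14 months of age, and each mouse gave 1 library. The groups were 5 WT, 5 zQ175, 3 CK2a'(+/-) and 5 zQ175:CK2a'(+/-) mice, all on a C57BL/6 background, and no group received a treatment beyond anaesthesia and perfusion at tissue collection. The zQ175 allele is a knock-in of an expanded CAG repeat in a chimeric human and mouse exon of the huntingtin gene, carried here in the heterozygous state, and is a model of Huntington's disease. CK2a'(+/-) mice lack 1 of their alleles of Csnk2a2, which encodes the catalytic subunit CK2 alpha prime of protein kinase CK2, and zQ175:CK2a'(+/-) mice carry both changes. Both genetic changes are carried by every cell of the animal, and the striatum was sequenced as bulk tissue. By the study's methods the share of females was unequal between the groups, and the labels do not give the sex of a library.

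Neuropeptides are cut from larger precursors, packed into dense-core vesicles and released on sustained firing, and they act on G protein-coupled receptors. In the striatum, projection neurons of the direct pathway make substance P from Tac1, and Tacr1, the substance P receptor, is known from cholinergic and somatostatin interneurons. Tac2 encodes neurokinin B, whose receptor is Tacr3. Cholecystokinin is abundant in cortical and thalamic neurons that send axons to the striatum, and Cckbr is the main brain receptor for it. PACAP acts through Adcyap1r1, which is widely expressed by neurons and glia and raises cyclic AMP.

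The labels were checked with the knocked-out gene. Csnk2a2 lay between 14.7 and 19.9 CPM (the count scaled to a library of fixed size after TMM normalization, the unit of all levels here) in the 8 mice with 1 allele. The 10 mice with an intact pair all lay higher, between 29.4 and 37.5 CPM (p = 4.57e-05, two-sided exact permutation test). Total counts per library ranged from 13612381 to 22702547. Markers of striatal projection neurons were high in every library (9 genes, summed CPM from 1982 to 7425), so the labelled tissue was present in all, although the ventral and medial striatal marker Dlk1 was at 0 in each. Some libraries also held transcripts of neighbouring tissue. The thalamic marker sum (6 genes) was 893 CPM in zQ175 replicate 1 against 32.1 to 410 CPM elsewhere, and the hypothalamic sum (8 genes) was 38.0 CPM there against 0.677 to 6.53 CPM elsewhere. The same library had the lowest projection-neuron sum. The cortical excitatory sum (9 genes) was highest in zQ175 replicate 5, at 361 CPM against 52.1 to 182 CPM elsewhere. The choroid plexus sum (4 genes) lay between 951 and 3028 CPM in WT replicates 1 and 3, CK2a'(+/-) replicate 1 and zQ175:CK2a'(+/-) replicate 2, and at 15.4 CPM or less in the other 14 libraries. Results are therefore also given without zQ175 replicates 1 and 5 and without those 4 libraries where the value changes, a choice made after the data were seen.

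The level order per kilobase of exon, averaged over the 18 libraries, ran from Tac1 to Adcyap1. Tac1 stood at 24.1 ± 5.14 CPM per kb (mean ± SD, n = 18), Cck at 15.3 ± 9.85 and Adcyap1r1 at 11.4 ± 1.47 CPM per kb. Nts followed at 4.39 ± 2.02, Tacr1 at 2.77 ± 0.570 and Cartpt at 2.56 ± 1.67 CPM per kb. The lowest were Tacr3 at 1.13 ± 0.304, Cckbr at 1.10 ± 0.485, Tac2 at 1.04 ± 1.19 and Adcyap1 at 0.358 ± 0.935 CPM per kb. The ranges of each neighbouring pair in this order overlapped across libraries. The members also differed in how far they varied between mice on the CPM scale. The highest library of Adcyap1r1 was 1.81 times its lowest, and this ratio was 2.05 for Tacr1 and 3.01 for Tac1. It reached 8.40 for Cck, 10.2 for Cartpt and 107 for Tac2, the last against a library with 1 count. A single library, zQ175 replicate 1, held 63.4% of the summed Adcyap1 CPM of all 18.

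**Figure D1:**
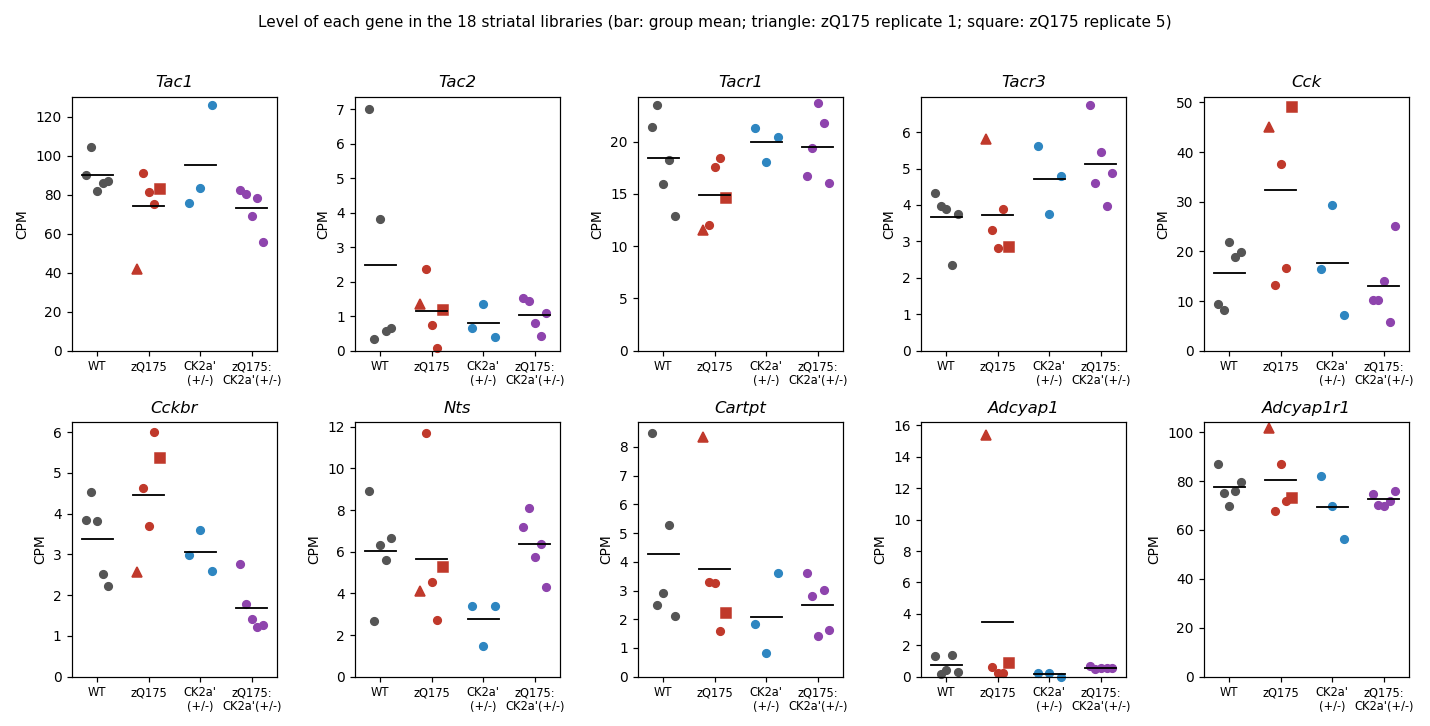
Level of each of the 10 genes in CPM (vertical axis, linear from 0) in every library, grouped by genotype along the horizontal axis, with the group mean as a bar. Cckbr is low in 4 of the 5 zQ175:CK2a'(+/-) libraries, Cck is high in 3 zQ175 libraries, and Adcyap1 is high in zQ175 replicate 1 alone, at 15.4 CPM.

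All 18 libraries entered 1 model of 20914 genes, and comparisons were tested by quasi-likelihood in edgeR, with an adjusted p (Benjamini-Hochberg over all genes tested) under 0.1 as the threshold. All 10 members passed the filter on low counts and were tested. Between zQ175 and WT mice none of the 10 passed by edgeR or by DESeq2, and 2 (Cck and Adcyap1) had an unadjusted p under 0.05. Of all genes tested, 1.1% passed in that comparison and 13.9% had an unadjusted p under 0.05, while DESeq2 passed 5.15%. Between zQ175:CK2a'(+/-) and WT mice none passed by edgeR or DESeq2, and 2 members (Cckbr and Tacr3) had an unadjusted p under 0.05, against 0.0143% of all genes past the edgeR threshold, 0.722% past that of DESeq2 and 9.13% at the unadjusted p. Between zQ175 and zQ175:CK2a'(+/-) mice none passed by edgeR, 1 (Cckbr) passed by DESeq2, and 4 (Cckbr, Cck, Adcyap1 and Tacr1) had an unadjusted edgeR p under 0.05. The background there was 0.0143% past the edgeR threshold, 0.146% past that of DESeq2 and 6.27% at the unadjusted p. Between CK2a'(+/-) and WT mice none passed by edgeR or DESeq2 and 1 (Nts) had an unadjusted p under 0.05, against 0.0143% of all genes by edgeR, 0.0293% by DESeq2 and 4.48% at the unadjusted p.

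The zQ175 allele was also compared over all mice that carry or lack it, with equal weight to both CK2a' genotypes. None of the 10 members passed by edgeR or DESeq2 and 3 (Tac1, Adcyap1 and Nts) had an unadjusted p under 0.05, against 4.9% of all genes past the edgeR threshold, 8.78% past that of DESeq2 and 16.2% at the unadjusted p. In the interaction of the zQ175 and CK2a'(+/-) genotypes none passed by either tool and 3 (Cckbr, Nts and Cck) had an unadjusted p under 0.05, against 0.00478% of all genes by edgeR, 0.0747% by DESeq2 and 5.39% at the unadjusted p. These comparisons share libraries, so their values are given side by side and are not independent. For no member did 2 compared groups lie apart without overlap. Among all genes tested, groups without overlap were found for 2.44% between zQ175 and WT, 1.84% between zQ175:CK2a'(+/-) and WT, 1.14% between zQ175 and zQ175:CK2a'(+/-), and 3.2% between CK2a'(+/-) and WT. The median log2 fold change of the 10 members was -0.03 between zQ175 and WT, -0.28 between zQ175:CK2a'(+/-) and WT and 0.14 between zQ175 and zQ175:CK2a'(+/-). Over all genes tested the medians of these comparisons were 0.0042, -0.0087 and 0.0051.

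**Figure D2:**
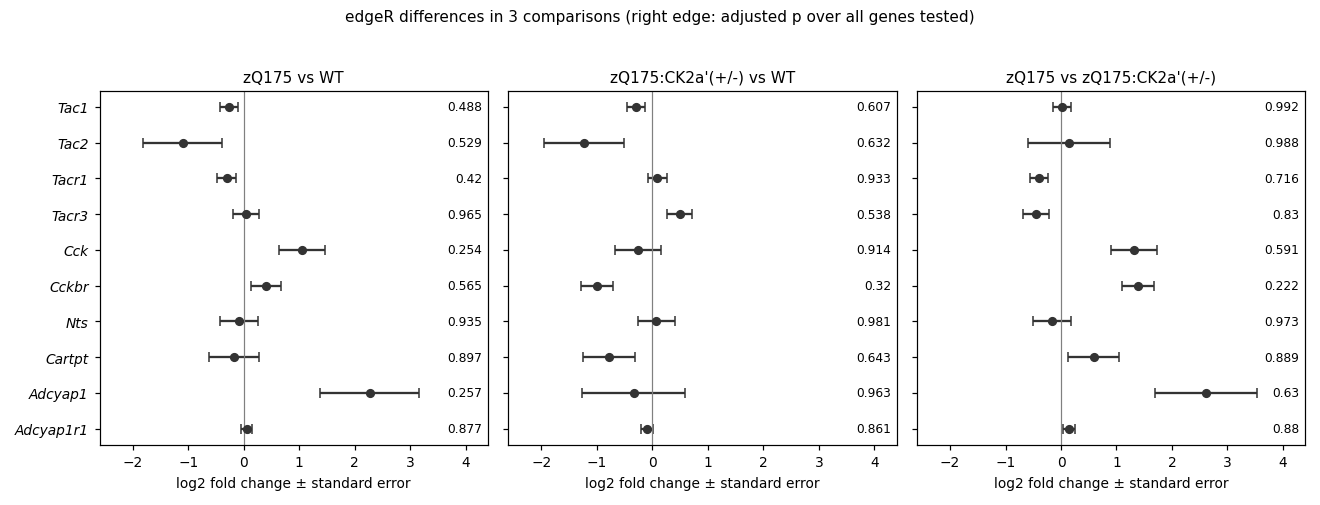
Log2 fold change of each gene with its standard error (horizontal axis) in 3 comparisons, with the edgeR adjusted p over all genes tested printed at the right edge of each panel. Cck, Cckbr and Adcyap1 lie farthest above 0 in zQ175 against zQ175:CK2a'(+/-) mice, and the lowest adjusted p in that panel is 0.222, for Cckbr.

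Tac1, the substance P precursor of direct-pathway neurons (ENSMUSG00000061762, GRCm38 chromosome 6, 7554879 to 7565834, plus strand), was the most abundant member per kilobase. It stood at 90.0, 104, 82.1, 86.2 and 87.0 CPM in WT replicates 1 to 5 and at 42.0, 91.1, 81.2, 75.0 and 82.7 CPM in zQ175 replicates 1 to 5. The CK2a'(+/-) libraries held 75.7, 83.2 and 126 CPM and the zQ175:CK2a'(+/-) libraries 82.2, 80.1, 69.1, 78.2 and 55.8 CPM. All groups overlapped, the lowest value was that of zQ175 replicate 1 and the highest that of CK2a'(+/-) replicate 3. Tac1 differed by -0.27 on the log2 scale (SE 0.165, edgeR adjusted p = 0.488) between zQ175 and WT and -0.30 (SE 0.165, edgeR adjusted p = 0.607) between zQ175:CK2a'(+/-) and WT. The first was -0.12 without zQ175 replicate 1 (edgeR adjusted p = 0.738). Between zQ175 and zQ175:CK2a'(+/-) mice it was 0.02 (SE 0.165). Averaged over both CK2a' genotypes, the zQ175 allele went with a log2 fold change of -0.33 (SE 0.125, edgeR adjusted p = 0.186). It was -0.25 without zQ175 replicates 1 and 5 (edgeR adjusted p = 0.229) and -0.43 without the 4 libraries with choroid plexus transcripts (edgeR adjusted p = 0.253). That difference passed the threshold with no filter on low counts (adjusted p = 0.0746) and with the Xist level as covariate (adjusted p = 0.0714), at -0.33 and -0.38 (both edgeR), where 2.65% and 5.67% of all genes passed. Without CK2a'(+/-) replicate 3 its adjusted p was 0.566, and leaving out 1 library at a time it ranged from -0.40 to -0.20. The 250 bases before the RefSeq start of Tac1 nearest to its annotated 5′ end (GRCm38.p6, chr6:7554811-7555060, plus strand) are shown, as are those of Cck, Cckbr and Adcyap1 beside their values. None of these genes passed the edgeR threshold in the main fit. Capitals mark TGACG or its reverse complement CGTCA, the core of the cyclic AMP response element, searched on both strands.
Tac1: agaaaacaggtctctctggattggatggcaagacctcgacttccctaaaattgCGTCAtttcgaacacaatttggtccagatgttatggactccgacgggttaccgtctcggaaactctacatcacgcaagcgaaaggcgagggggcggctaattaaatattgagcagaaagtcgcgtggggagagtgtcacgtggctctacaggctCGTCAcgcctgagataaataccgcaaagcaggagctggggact
The Tac1 sequence held matches that began 197 and 43 bases before the start. Of the 10 members 7 held a match in this window, against 17.7% of the 32817 promoter windows of the same length in the RefSeq table. The full palindrome TGACGTCA, which contains both cores, was in the window of 1 member, Cartpt, and in 1.55% of all windows. A match is a description of the letters, and binding was not measured.

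Tac1 was set beside the other genes of the projection neurons that express it. Averaged over both CK2a' genotypes, 3 of 8 direct-pathway markers were lower with the zQ175 allele and none higher, where 2.78% of all genes tested were lower and 2.11% higher. The dopamine D1 receptor gene Drd1 had a log2 fold change of -0.70 (SE 0.171, edgeR adjusted p = 0.0328). The prodynorphin gene Pdyn, another peptide precursor of these cells, had -0.75 (SE 0.176, edgeR adjusted p = 0.0272). The muscarinic receptor gene Chrm4 had -0.83 (SE 0.173, edgeR adjusted p = 0.0149). The other 5 (Isl1, Ebf1, Eya1, Sfxn1 and Slc35d3) lay between -0.07 and 0.23, with edgeR adjusted p from 0.505 to 0.917, and the median of the 8 was -0.01. Of 5 indirect-pathway markers, 4 were lower and none higher. They were Penk, the enkephalin precursor, at -1.02 (SE 0.170, edgeR adjusted p = 0.00318), Adora2a, an adenosine receptor gene, at -1.17 (SE 0.184, edgeR adjusted p = 0.00224), the orphan receptor gene Gpr6 at -0.95 (SE 0.207, edgeR adjusted p = 0.0186) and the dopamine D2 receptor gene Drd2 at -0.69 (SE 0.160, edgeR adjusted p = 0.0262), and the median of the 5 was -0.95. The value of Tac1 in the same comparison was -0.33, and the difference between Tac1 and these genes was not tested. Without zQ175 replicates 1 and 5 all 7 calls were kept (adjusted p from 0.00555 to 0.0595). Without the 4 libraries with choroid plexus transcripts, Penk and Adora2a kept theirs (adjusted p = 0.0618 and 0.0656, edgeR) at -1.02 and -1.06. The lists' other called genes had edgeR adjusted p from 0.153 to 0.178 there, at -0.75 (Drd1), -0.75 (Pdyn), -0.79 (Chrm4), -0.95 (Gpr6) and -0.72 (Drd2). The projection-neuron sums of WT replicates 4 and 5, at 3469 and 3292 CPM, lay within the zQ175 range of 1982 to 3871 CPM. Those of WT replicates 1 to 3, at 4771 to 7425 CPM, lay above it. In these bulk samples, fewer cells of a type, less RNA per cell and a larger share of neighbouring tissue cannot be told apart.

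**Figure D3:**
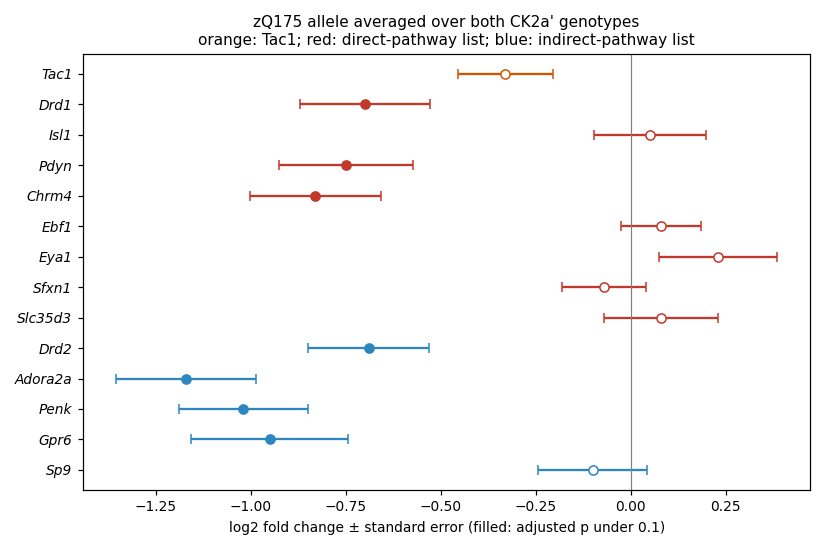
Log2 fold change with standard error (horizontal axis) for the zQ175 allele averaged over both CK2a' genotypes, for Tac1 (orange), the direct-pathway list (red) and the indirect-pathway list (blue). Filled points have an edgeR adjusted p under 0.1, and the open point of Tac1 lies at -0.33, between the called markers and those near 0.

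Tac2, the neurokinin B precursor (ENSMUSG00000025400, GRCm38 chromosome 10, 127724478 to 127731768, plus strand), was counted by 1 to 141 reads per library. It stood at 7.03, 0.335, 3.81, 0.577 and 0.649 CPM in WT replicates 1 to 5. The zQ175 libraries held 1.36, 2.38, 0.738, 0.0659 and 1.18 CPM, the CK2a'(+/-) libraries 0.656, 1.36 and 0.400 CPM and the zQ175:CK2a'(+/-) libraries 1.52, 1.44, 0.796, 0.425 and 1.082 CPM. The highest were WT replicates 1 and 3, which are among the libraries with choroid plexus transcripts. In log2 terms the difference was -1.10 (SE 0.714, edgeR adjusted p = 0.529) between zQ175 and WT and -1.23 (SE 0.722, edgeR adjusted p = 0.632) between zQ175:CK2a'(+/-) and WT. Without WT replicate 1 they were -0.21 and -0.35 (edgeR adjusted p = 0.937 and 0.962). Without the 4 libraries with choroid plexus transcripts these became 1.13 and 0.86 (edgeR adjusted p = 0.721 and 1), so the direction rested on those libraries. The part of that tissue in the Tac2 level was not tested.

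Cck, the cholecystokinin precursor (ENSMUSG00000032532, GRCm38 chromosome 9, 121489824 to 121495694, minus strand), had the larger values in 3 of the 5 zQ175 libraries. It stood at 9.32, 8.21, 21.99, 19.0 and 19.8 CPM in WT replicates 1 to 5 and at 45.1, 13.3, 37.5, 16.8 and 49.0 CPM in zQ175 replicates 1 to 5. The CK2a'(+/-) libraries held 16.5, 29.4 and 7.27 CPM and the zQ175:CK2a'(+/-) libraries 10.2, 10.2, 14.1, 5.84 and 25.1 CPM. zQ175 replicates 1, 3 and 5 lay above all 15 other libraries, while zQ175 replicates 2 and 4 lay within the range of the WT group. The mean was 32.4 ± 16.4 CPM in zQ175 mice (SD, n = 5), 15.7 ± 6.41 CPM in WT mice (SD, n = 5) and 13.1 ± 7.31 CPM in zQ175:CK2a'(+/-) mice (SD, n = 5). On the log2 scale Cck differed by 1.05 between zQ175 and WT (SE 0.41, edgeR adjusted p = 0.254), a 2.07-fold difference. It was 1.31 between zQ175 and zQ175:CK2a'(+/-) (SE 0.415, edgeR adjusted p = 0.591), a 2.48-fold difference, and -0.26 between zQ175:CK2a'(+/-) and WT (SE 0.415). Leaving out 1 library, the last value ranged from -0.64 to -0.07. The interaction was -1.50 (SE 0.621, edgeR adjusted p = 0.916), which was -0.92 without CK2a'(+/-) replicate 2. Neither difference passed with the filter on low counts, while without the filter both did (edgeR adjusted p = 0.0777 and 0.0544), where 1.2% and 0.136% of all genes passed.
Cck: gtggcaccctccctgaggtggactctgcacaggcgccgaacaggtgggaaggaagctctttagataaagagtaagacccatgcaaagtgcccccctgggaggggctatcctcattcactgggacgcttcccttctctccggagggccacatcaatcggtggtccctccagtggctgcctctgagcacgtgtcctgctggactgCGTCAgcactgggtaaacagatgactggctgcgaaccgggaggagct
This window lies at chr9:121495695-121495944 (GRCm38.p6, minus strand, RefSeq), written in the direction of transcription, with 1 match that begins 47 bases before the start.

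The Cck level was set beside the markers of other brain regions in each library. The 3 libraries highest in Cck, zQ175 replicates 5, 1 and 3, had sums of the cortical excitatory markers of 361, 182 and 147 CPM. In replicate 1 the marker Cux2 gave 100.4 of the 182 CPM, while Cux2 was lowest of all libraries in replicate 5, at 23.8 CPM, where the other 8 markers were each highest. Without Cux2 the sums were 338, 81.9 and 96.4 CPM, which placed replicate 1 4th of 18, behind replicates 5, 3 and 4. zQ175 replicate 4, with a cortical sum of 129 CPM, had 16.8 CPM of Cck, below 8 other libraries. In the thalamic sum, zQ175 replicate 1 stood at 893 CPM and replicate 3 at 287 CPM, whereas replicate 5 stood at 40.1 CPM, among the lower libraries. Over the cortical list, 1 of the 8 genes tested was higher in zQ175 than in WT mice, Tbr1, a transcription factor of cortical projection neurons, at a log2 fold change of 1.27 (SE 0.322, edgeR adjusted p = 0.0902), and 0.387% of all genes tested were called higher. Tbr1 was not called without zQ175 replicates 1 and 5 (1.28, edgeR adjusted p = 0.245) or without the 4 libraries with choroid plexus transcripts (1.21, edgeR adjusted p = 0.536). Of the 8 genes, 6 were higher between zQ175 and WT at an unadjusted edgeR p under 0.05, against 13.9% of all genes tested. The median of the list was 1.44. Between zQ175 and zQ175:CK2a'(+/-) mice no gene of the list passed by edgeR. There 5 were higher at an unadjusted edgeR p under 0.05, against 6.27% of all genes tested, and the median was 1.2. The sum ranged from 102 to 361 CPM in zQ175, from 58.7 to 108 CPM in WT, from 52.1 to 121 CPM in CK2a'(+/-) and from 55.0 to 105 CPM in zQ175:CK2a'(+/-) mice. Without zQ175 replicates 1 and 5, the Cck difference was 0.52 against WT (edgeR adjusted p = 0.732) and 0.78 against zQ175:CK2a'(+/-) mice (edgeR adjusted p = 0.999). The part of cortical and thalamic transcripts in the Cck difference was not tested.

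**Figure D4:**
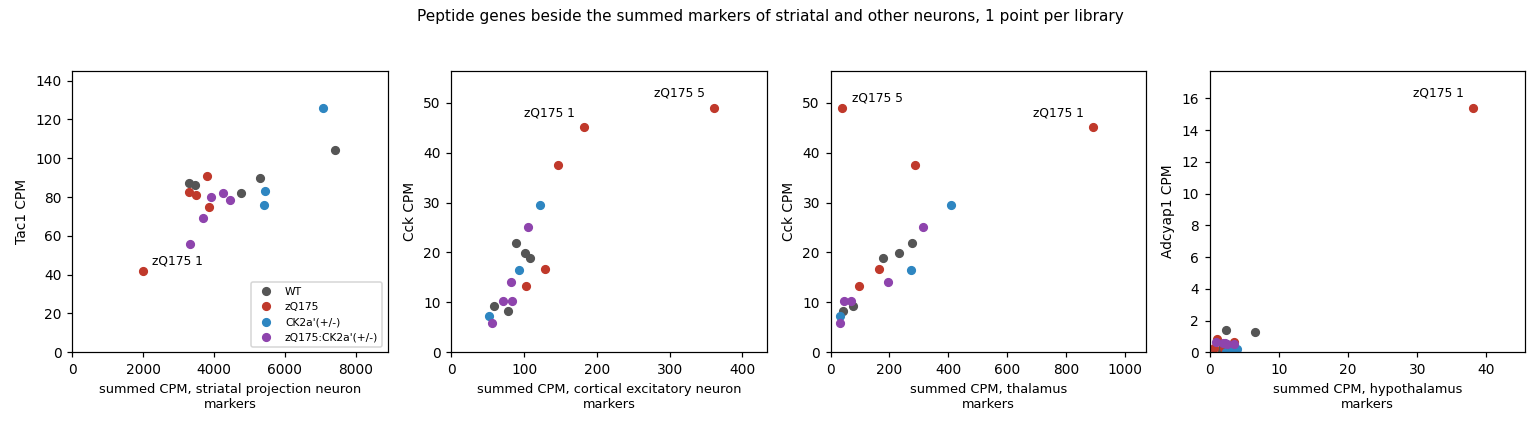
Level of Tac1, Cck and Adcyap1 in CPM (vertical axes) against the summed CPM of marker lists for striatal projection neurons, cortical excitatory neurons, thalamus and hypothalamus (horizontal axes), 1 point per library coloured by genotype. zQ175 replicate 5 is highest in Cck and in the cortical sum, where Cux2 gives 100.4 of the 182 CPM of zQ175 replicate 1. zQ175 replicate 1 is highest in the thalamic sum, in the hypothalamic sum and in Adcyap1, and lowest in Tac1.

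Nts, the precursor of neurotensin, a peptide found in ventral striatal and amygdalar neurons (ENSMUSG00000019890, GRCm38 chromosome 10, 102481756 to 102490486, minus strand), was lowest on average in the CK2a'(+/-) group. It stood at 8.92, 2.68, 6.33, 5.60 and 6.67 CPM in WT replicates 1 to 5 and at 3.38, 1.49 and 3.40 CPM in CK2a'(+/-) replicates 1 to 3. The zQ175 libraries held 4.12, 11.7, 4.55, 2.70 and 5.27 CPM and the zQ175:CK2a'(+/-) libraries 7.21, 8.11, 5.76, 6.37 and 4.33 CPM. WT replicate 2 lay within the range of the CK2a'(+/-) group, and the other WT libraries lay above it. The log2 fold change between CK2a'(+/-) and WT was -1.14 (SE 0.417, edgeR unadjusted p = 0.0122, adjusted p = 0.999). The interaction was 1.30 (SE 0.534, edgeR adjusted p = 0.916), and the zQ175 allele averaged over both CK2a' genotypes gave 0.56 (SE 0.267, edgeR adjusted p = 0.301), which was 0.32 without zQ175 replicate 2. The differences of zQ175 and of zQ175:CK2a'(+/-) from WT were -0.09 (SE 0.339) and 0.07 (SE 0.338). Without zQ175 replicate 2, the highest library, the former was -0.55 (edgeR adjusted p = 0.443), and leaving out 1 library the latter ranged from -0.13 to 0.24.

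Cartpt, the precursor of CART peptides (ENSMUSG00000021647, GRCm38 chromosome 13, 99898489 to 99901091, minus strand), was high in WT replicate 1 and zQ175 replicate 1. It stood at 8.47, 2.51, 2.93, 5.29 and 2.13 CPM in WT and at 8.34, 3.30, 3.26, 1.58 and 2.21 CPM in zQ175 replicates 1 to 5. The CK2a'(+/-) libraries held 1.82, 0.831 and 3.60 CPM and the zQ175:CK2a'(+/-) libraries 3.60, 2.80, 1.41, 3.02 and 1.62 CPM. All groups overlapped. These 2 libraries were also the highest in the hypothalamic marker sum, at 6.53 CPM in WT replicate 1 and 38.0 CPM in zQ175 replicate 1, and the part of that tissue in the Cartpt level was not tested. As log2 fold changes, the differences were -0.18 (SE 0.452, edgeR adjusted p = 0.897) between zQ175 and WT and -0.78 (SE 0.462, edgeR adjusted p = 0.643) between zQ175:CK2a'(+/-) and WT. Without WT replicate 1 the second was -0.39 (edgeR adjusted p = 0.921) and the first 0.21, and without zQ175 replicate 1 the first was -0.72.

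Adcyap1, the PACAP precursor (ENSMUSG00000024256, GRCm38 chromosome 17, 93199017 to 93206537, plus strand), was counted by 31 reads or fewer in every library but zQ175 replicate 1. It stood at 1.30, 0.168, 0.408, 1.38 and 0.324 CPM in WT and at 15.4, 0.637, 0.246, 0.264 and 0.860 CPM in zQ175 replicates 1 to 5. The zQ175:CK2a'(+/-) libraries held 0.675, 0.502, 0.551, 0.584 and 0.541 CPM. The CK2a'(+/-) libraries held 0.253, 0.219 and 0 CPM, where a count of 0 allows a level of up to 0.200 CPM (3 counts, counting error only). The count was 329 reads in zQ175 replicate 1 and at most 31 in a WT library. The log2 fold change was 2.27 (SE 0.889, edgeR adjusted p = 0.257) between zQ175 and WT and 2.61 (SE 0.918, edgeR adjusted p = 0.63) between zQ175 and zQ175:CK2a'(+/-). Without zQ175 replicate 1 these became -0.51 (edgeR adjusted p = 0.809) and -0.18 (edgeR adjusted p = 0.988), and the zQ175 mean was 0.502 ± 0.299 CPM (SD, n = 4), so the direction turned with that library alone. Averaged over both CK2a' genotypes it was 2.00 (SE 0.782, edgeR adjusted p = 0.194), which passed without the filter on low counts (adjusted p = 0.0746) and with the Xist level as covariate (adjusted p = 0.0954), settings in which 2.65% and 5.67% of all genes passed. It was 0.62 without zQ175 replicate 1 (edgeR adjusted p = 0.618). The hypothalamic sum of zQ175 replicate 1 over 8 markers was 38.0 CPM, of which Pmch, the melanin-concentrating hormone precursor, gave 29.2 CPM. That library was the highest of all for 4 of the 8 (Pmch, Hcrt, Sim1 and Agrp), while Oxt and Avp were highest in WT replicate 1, Otp in zQ175 replicate 2 and Pomc in CK2a'(+/-) replicate 1, and Avp was at 0 in zQ175 replicate 1. The other libraries had sums of 0.677 to 6.53 CPM. The thalamic sum of zQ175 replicate 1 was also the highest, at 893 CPM against 32.1 to 410 CPM elsewhere. The part of either tissue in the Adcyap1 level was not tested.
Adcyap1: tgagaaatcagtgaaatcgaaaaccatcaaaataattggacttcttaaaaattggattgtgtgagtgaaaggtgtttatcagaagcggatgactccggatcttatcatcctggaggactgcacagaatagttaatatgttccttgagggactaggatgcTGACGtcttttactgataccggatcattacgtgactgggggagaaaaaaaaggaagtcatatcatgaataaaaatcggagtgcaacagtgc
This window lies at chr17:93198767-93199016 (GRCm38.p6, plus strand, RefSeq) and its match begins 91 bases before the start.

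Tacr1, the substance P receptor (ENSMUSG00000030043, GRCm38 chromosome 6, 82402334 to 82560104, plus strand), ranged from 11.6 to 23.7 CPM. It stood at 21.4, 23.5, 15.9, 18.2 and 12.9 CPM in WT, at 11.6, 12.1, 17.6, 18.5 and 14.6 CPM in zQ175 and at 16.7, 19.4, 23.7, 21.8 and 16.0 CPM in zQ175:CK2a'(+/-) replicates 1 to 5, and at 21.3, 18.03 and 20.4 CPM in the CK2a'(+/-) libraries. zQ175 replicates 1 and 2 were the lowest of all 18, and the 3 groups of 5 overlapped. The log2 fold change was -0.40 (SE 0.166, edgeR unadjusted p = 0.0267, adjusted p = 0.716) between zQ175 and zQ175:CK2a'(+/-) and -0.31 (SE 0.166, edgeR adjusted p = 0.42) between zQ175 and WT. Cholinergic interneurons are among the cells known for Tacr1, and their marker sum (5 genes) ranged from 23.7 to 60.7 CPM in zQ175, from 50.4 to 79.9 CPM in WT, from 57.8 to 89.0 CPM in CK2a'(+/-) and from 55.1 to 82.1 CPM in zQ175:CK2a'(+/-) mice. The lowest of these sums was again in zQ175 replicate 1. None of the 5 genes passed the edgeR threshold between zQ175 and WT, with 3 below 0.05 at the unadjusted p, all lower, and 2 past that of DESeq2, against 13.9% and 5.15% of all genes tested. Of the same 5 genes, 2 (Slc18a3 at -1.17 and Slc5a7 at -0.54) had an unadjusted edgeR p under 0.05 between zQ175 and zQ175:CK2a'(+/-) and 1 (Slc18a3) passed by DESeq2, against 6.27% and 0.146%. The sum of the Sst and Npy interneuron list (4 genes) ranged from 117 to 201 CPM in zQ175 and from 189 to 247 CPM in WT mice. It ranged from 191 to 236 CPM in CK2a'(+/-) and from 163 to 215 CPM in zQ175:CK2a'(+/-) mice. None of the 4 passed by edgeR. Between zQ175 and WT 1, Sst, was lower at an unadjusted p under 0.05, at a list median of -0.35. Between zQ175 and zQ175:CK2a'(+/-) none was, at a median of -0.08. The part of either cell type in the Tacr1 level was not tested.

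Tacr3, the neurokinin B receptor (ENSMUSG00000028172, GRCm38 chromosome 3, 134829007 to 134934579, plus strand), had its larger mean in zQ175:CK2a'(+/-) mice. It stood at 4.33, 3.97, 3.88, 2.35 and 3.75 CPM in WT, at 5.81, 3.30, 2.83, 3.89 and 2.85 CPM in zQ175 and at 6.75, 4.59, 5.45, 3.98 and 4.87 CPM in zQ175:CK2a'(+/-) replicates 1 to 5, and at 5.61, 3.76 and 4.805 CPM in the CK2a'(+/-) libraries. Of the zQ175:CK2a'(+/-) libraries only replicate 4 lay below the highest WT library. The log2 fold change against WT was 0.49 (SE 0.232, edgeR unadjusted p = 0.0468, adjusted p = 0.538) in zQ175:CK2a'(+/-) mice and 0.04 (SE 0.233, edgeR adjusted p = 0.965) in zQ175 mice.

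Cckbr, the brain cholecystokinin receptor (ENSMUSG00000030898, GRCm38 chromosome 7, 105425731 to 105470898, plus strand), showed the lowest unadjusted p of the 10 members. It stood at 3.84, 4.52, 3.81, 2.53 and 2.22 CPM in WT replicates 1 to 5, at 2.58, 4.63, 3.69, 6.00 and 5.38 CPM in zQ175 replicates 1 to 5 and at 2.98, 3.59 and 2.60 CPM in CK2a'(+/-) replicates 1 to 3. The zQ175:CK2a'(+/-) libraries held 2.76, 1.79, 1.41, 1.22 and 1.26 CPM. Replicates 2 to 5 of that group were the 4 lowest of all 18 libraries, and its replicate 1 overlapped the other groups. The counts behind these values were 21 to 49 reads in the zQ175:CK2a'(+/-) libraries and 55 to 100 reads in the zQ175 libraries. The mean was 1.69 ± 0.639 CPM in zQ175:CK2a'(+/-) mice (SD, n = 5), 4.46 ± 1.36 CPM in zQ175 mice (SD, n = 5), 3.39 ± 0.970 CPM in WT mice (SD, n = 5) and 3.06 ± 0.497 CPM in CK2a'(+/-) mice (SD, n = 3).
Cckbr: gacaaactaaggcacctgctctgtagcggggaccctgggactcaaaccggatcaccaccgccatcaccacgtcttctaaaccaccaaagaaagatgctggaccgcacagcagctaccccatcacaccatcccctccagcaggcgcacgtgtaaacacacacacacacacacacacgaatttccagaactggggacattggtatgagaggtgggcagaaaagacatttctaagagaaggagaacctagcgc
This window lies at chr7:105425481-105425730 (GRCm38.p6, plus strand, RefSeq), and the searched letters do not occur in it.

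Between zQ175 and zQ175:CK2a'(+/-) mice the log2 fold change of Cckbr was 1.39 (SE 0.289), a 2.63-fold difference with an unadjusted edgeR p of 9.03e-05 and an adjusted p of 0.222. DESeq2 gave 1.40 with an adjusted p of 0.0128. The edgeR value passed the threshold without the filter on low counts (adjusted p = 0.0508), without zQ175 replicate 1 (1.54, adjusted p = 0.0803) and without zQ175:CK2a'(+/-) replicate 1 (1.65, adjusted p = 0.0957). Leaving out any other library gave no call, with the highest adjusted p, 0.668, without zQ175:CK2a'(+/-) replicate 3, and the difference ranged from 1.26 to 1.65. Without zQ175 replicates 1 and 5 it was 1.49 (edgeR adjusted p = 0.313) and without the 4 libraries with choroid plexus transcripts 1.41 (edgeR adjusted p = 0.924). Between zQ175:CK2a'(+/-) and WT mice it was -1.0 (SE 0.289, edgeR unadjusted p = 0.00239, adjusted p = 0.32), and between zQ175 and WT 0.40 (SE 0.277, edgeR adjusted p = 0.565), the latter 0.26 without zQ175 replicate 4 (edgeR adjusted p = 0.754). Between CK2a'(+/-) and WT mice it was -0.14 (SE 0.323). The interaction was -1.25 (SE 0.428, edgeR unadjusted p = 0.00796, adjusted p = 0.832). zQ175 replicates 5, 1, 3 and 4 were the 4 highest of the 18 libraries in the cortical marker sum, with or without Cux2, and they were 2nd, 12th, 7th and 1st in Cckbr. Between zQ175 and zQ175:CK2a'(+/-) mice the cortical list had a median of 1.2, with no gene past the edgeR threshold. Of its 8 tested genes, 5 were higher at an unadjusted edgeR p under 0.05, against 6.27% of all genes tested. The part of cortical transcripts in the Cckbr level was not tested.

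Adcyap1r1, the PACAP receptor (ENSMUSG00000029778, GRCm38 chromosome 6, 55451978 to 55501451, plus strand), was the least variable member. It ranged from 69.9 to 86.9 CPM in WT, from 67.7 to 102 CPM in zQ175, from 56.1 to 82.1 CPM in CK2a'(+/-) and from 69.8 to 76.1 CPM in zQ175:CK2a'(+/-) mice. The log2 fold changes were 0.05 (SE 0.106, edgeR adjusted p = 0.877) between zQ175 and WT, -0.10 (SE 0.107, edgeR adjusted p = 0.861) between zQ175:CK2a'(+/-) and WT, and 0.15 (SE 0.107, edgeR adjusted p = 0.88) between zQ175 and zQ175:CK2a'(+/-). The last was 0.04 without zQ175 replicate 1 (edgeR adjusted p = 0.978). The highest library was zQ175 replicate 1, which was also the highest for its ligand Adcyap1.

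The rest of the peptide system was read from 4 lists. Of 9 related ligands and receptors 7 were tested, and with the zQ175 allele averaged over both CK2a' genotypes 1 was lower and none higher. That gene was Ntsr2, a neurotensin receptor of astrocytes, at -0.37 (SE 0.0703, edgeR adjusted p = 0.00928), with means of 72.5 ± 7.78 CPM in WT, 61.2 ± 7.33 in zQ175, 86.3 ± 6.71 in CK2a'(+/-) and 61.5 ± 5.57 in zQ175:CK2a'(+/-) mice (SD, n = 5, 5, 3 and 5). Of 4 astrocyte markers 1, Aldh1l1, was also lower (-0.27, SE 0.0805, edgeR adjusted p = 0.0763), a call kept without zQ175 replicates 1 and 5 (-0.28, adjusted p = 0.0952) and lost without the 4 libraries with choroid plexus transcripts (-0.29, adjusted p = 0.248, both edgeR), and the part of astrocyte number in the Ntsr2 level was not tested. Of 13 genes of peptide processing and dense-core vesicle release, 3 were higher and none lower in the same comparison, where 2.11% of all genes tested were higher and 2.78% lower. They were Pcsk1, the prohormone convertase that cuts peptide precursors, at 0.82 (SE 0.162, edgeR adjusted p = 0.0113), Pam, which amidates peptide ends, at 0.26 (SE 0.0635, edgeR adjusted p = 0.0304), and Scg2, a granin of the vesicle core, at 0.26 (SE 0.0762, edgeR adjusted p = 0.076). Pcsk1 stood at 10.8 ± 1.81 CPM in WT, 16.8 ± 5.97 in zQ175, 6.99 ± 0.988 in CK2a'(+/-) and 14.1 ± 2.68 in zQ175:CK2a'(+/-) mice. Scg2 stood at 214 ± 15.2 CPM in WT, 231 ± 35.3 in zQ175, 158 ± 20.7 in CK2a'(+/-) and 210 ± 16.3 in zQ175:CK2a'(+/-) mice. Its zQ175:CK2a'(+/-) mean thus lay below that of WT, and its lowest mean was that of the CK2a'(+/-) group. The medians of these lists were -0.36 and 0.04, against 0.0057 over all genes tested.

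Of 12 genes of Gq and phospholipase C signalling, the route by which Tacr1, Tacr3 and Cckbr act, 1 was lower and none higher with the zQ175 allele averaged over both CK2a' genotypes. That was the protein kinase C gene Prkcb at -0.40 (SE 0.117, edgeR adjusted p = 0.0757). None of 7 peptidases that degrade neuropeptides passed by edgeR in that comparison, and 1, Ece2, had an unadjusted p under 0.05 (log2 fold change 0.39), with none past the threshold by DESeq2. Over the 4 lists DESeq2 called 7 genes, the 5 of edgeR with Cpe and Gnaq, against 8.78% of all genes by DESeq2 and 4.9% by edgeR. Without zQ175 replicates 1 and 5, Ntsr2, Pcsk1, Pam and Scg2 kept their calls (edgeR adjusted p from 0.00431 to 0.0558) and Prkcb did not (0.123). Without the 4 libraries with choroid plexus transcripts none of the 5 did (edgeR adjusted p from 0.104 to 0.253), at log2 fold changes of -0.33 (Ntsr2), 0.81 (Pcsk1), 0.27 (Pam), 0.29 (Scg2) and -0.43 (Prkcb) in a fit with fewer libraries. In the other comparisons none of the 39 tested genes of the 4 lists passed by edgeR. Between zQ175 and WT 9 of them had an unadjusted p under 0.05, against 13.9% of all genes tested, and 1, Pcsk1, passed by DESeq2. In the comparisons of zQ175:CK2a'(+/-) with WT, of zQ175 with zQ175:CK2a'(+/-), of CK2a'(+/-) with WT and in the interaction, 4, 5, 5 and 2 had an unadjusted p under 0.05, against 9.13%, 6.27%, 4.48% and 5.39% of all genes tested, and none passed by DESeq2. The lowest p of each list between zQ175 and WT belonged to Pcsk1 (0.63, adjusted p = 0.168), Ntsr2 (-0.24, adjusted p = 0.24), Gnaq (0.23, adjusted p = 0.239) and Ace (-1.31, adjusted p = 0.275), all by edgeR. Between zQ175 and zQ175:CK2a'(+/-) they were Cadps2 (1.02), Vip (2.60), Ace (-1.08) and Gnaq (0.15), with edgeR adjusted p from 0.499 to 0.839. Ace stood at 102 CPM in zQ175:CK2a'(+/-) replicate 2, the library highest in choroid plexus transcripts, and its difference between these groups was 0.00096 without that library (edgeR adjusted p = 1). Without the 4 libraries with choroid plexus transcripts it was -0.38 between zQ175 and WT (edgeR adjusted p = 0.747). Without zQ175 replicates 1 and 5, Cadps2 was at 0.63 and Gnaq at 0.03, and Gnaq was at 0.11 between zQ175 and WT. Vip was 1.66 without zQ175 replicate 5. Between zQ175:CK2a'(+/-) and WT, Ntsr2 (-0.24), Pam (0.18) and Mme (0.28) had edgeR adjusted p from 0.439 to 0.675, with Mme at 0.16 without WT replicate 5 and Ntsr2 at -0.12 without the 4 libraries with choroid plexus transcripts. Between CK2a'(+/-) and WT they were Scg2 (-0.44), Ntsr2 (0.25), Ece1 (0.23) and Plcb2 (-0.42), with edgeR adjusted p from 0.787 to 0.999, with Ntsr2 at 0.38 without the same 4 libraries. In the interaction they were Pcsk1n (0.38), Vip (-2.43), Dpp4 (-1.42) and Gna11 (0.18), with edgeR adjusted p from 0.832 to 0.936, with Vip at -1.49 without zQ175 replicate 5 and Gna11 at 0.11 without CK2a'(+/-) replicate 2.

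The genes whose level followed each member most closely were read as Pearson correlations of log2 CPM over the 18 libraries, a description in which the points of both genes come from the same libraries and share their depth. Cck ran closest to Shisa6 and Ppm1e (r = 0.927 each) and Mturn (r = 0.912). Tac1 ran closest to Prkcz2 (r = 0.91), Crip2 (r = 0.903) and Icam5 (r = 0.893), and Tacr1 to Dhx35 (r = 0.865), Plxnd1 (r = 0.864) and Flrt3 (r = 0.844). Adcyap1 ran closest to Ndfip1 (r = 0.864), Lrfn1 and Tmem196, Cartpt to Zcchc12 (r = 0.831), Gap43 and Hap1, and Adcyap1r1 to March3 (r = 0.825), Dpp10 and Fhod3. The highest values were lower for Cckbr (Gm24876, r = 0.801, then 9330020H09Rik and Vxn), Tacr3 (Cpeb2, r = 0.796, then Sfta3-ps and Srarp), Nts (Gm12408, r = 0.785, then Gpr101 and Dleu7) and Tac2 (Cidea, r = 0.743, then 2810403D21Rik and Cgn). Among the members themselves, Adcyap1 and Adcyap1r1 had r = 0.703, a value to which zQ175 replicate 1 contributed the highest level of both. Tac1 had r = -0.739 with Adcyap1 and -0.54 with Cck, Tacr1 had -0.598 with Cck, and Cck and its receptor Cckbr had 0.262. Without zQ175 replicate 1, which was lowest in Tac1 and Tacr1, highest in Adcyap1 and 2nd in Cck, these 5 values were 0.457, -0.427, -0.396, -0.504 and 0.311 over 17 libraries.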

How the data were processed

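RNA from the striatum of 18 mice was sequenced as stranded total RNA, 1 library per mouse. After trimming (Trimmomatic) and alignment to GRCm38 (HISAT2 2.1.0), the authors removed duplicated mappings and reads that were unmapped or of low mapping quality, and deposited raw read counts per gene from Subread 1.6.2. The strand setting of that counting is not given in the sources used here, and no other annotated gene's span overlapped a member. The other deposited column, gene length in bases, gave the CPM per kb.

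CPM were computed here from the deposited counts with TMM normalization. All 6 comparisons came from a single fit of 18 libraries in edgeR 4.0.16 (R 4.3.3, filterByExpr, glmQLFit and glmQLFTest, genotype the only factor), with Benjamini-Hochberg adjustment over the 20914 genes tested and 0.1 as the threshold. DESeq2 1.42.0, which the authors used, was an alternative. The scripts were tested on simulated data. Log2 CPM for correlations used a prior count of 2. Groups came from the labels, which give no sex per library, while the study's methods give female-to-male ratios that differ between genotypes, so the Xist level served as covariate in an alternative. The other alternatives were size factors, no filter on low counts, only the groups compared, a replicate block, robust dispersion, a stricter threshold and leaving out each library. Total counts had a median of 18005044 per library, and intervals and limits cover counting error only.

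The members and the gene lists were chosen with earlier results of these data known. The genes named are the 10 members, each gene of the pathway lists past the threshold or otherwise of lowest p, the 3 genes most correlated with each member, and marker genes where their level moves with a member or defines the tissue. A list gene that this rule names in 1 comparison is not reported here. Symbols were matched for 55154 of 55421 identifiers. Promoter sequences are RefSeq's (GRCm38.p6), found for all 10 members.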

Additional observations from a re-analysis of the deposited data

Results flagged for a closer look

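Among 30 groups of 5 libraries (10 genes in 3 groups), 3 held a library whose gap to its nearest neighbour exceeded the 95% limit of Dixon's test (0.71 of the group's range), and chance flags about 1 in 20 groups. Adcyap1 stood at 15.4 CPM in zQ175 replicate 1, a gap of 0.96 of the range. Cartpt stood at 8.34 CPM in zQ175 replicate 1, a gap of 0.746 of the range. Nts stood at 11.7 CPM in zQ175 replicate 2, a gap of 0.715 of the range.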

How the results depend on the processing

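Of 519 member values recomputed under settings other than leaving out 1 library, 487 kept direction and side of the threshold, 8 passed it newly and 24 changed sign. Of 1080 with 1 library left out, the numbers were 1035, 2 and 43. No member was past the threshold by edgeR, so no call could be lost. The count of members past the threshold became 1 between zQ175 and WT and 2 between zQ175 and zQ175:CK2a'(+/-) without the filter on low counts, 1 in the latter by DESeq2 and 0 to 1 on leaving out 1 library. It became 2 for the averaged zQ175 allele without the filter and 2 with the Xist covariate, where 2.65% and 5.67% of all genes passed. Except where the libraries left out are named, the cause was not tested. In the following, zQ175 is compared with WT unless stated. Without the 4 libraries with choroid plexus transcripts, log2 fold changes turned to 1.13 (Tac2), 0.18 (Nts) and 0.18 (Cartpt), to 0.86 (Tac2) for zQ175:CK2a'(+/-) against WT, to 0.77 (Tac2) and 0.01 (Cckbr) for CK2a'(+/-) against WT, to 0.61 (Tac2) for the averaged allele, and to -1.04 (Tac2) and -0.02 (Cartpt) in the interaction. Without zQ175 replicates 1 and 5 they turned to -0.13 (Tacr3), 0.07 (Nts), -0.89 (Adcyap1) and -0.04 (Adcyap1r1), to -0.57 (Adcyap1) against zQ175:CK2a'(+/-), to -0.0026 (Tacr3) and -0.18 (Cartpt) for the averaged allele, and to 2.65 (Adcyap1) in the interaction. With the Xist covariate they turned to -0.01 (Adcyap1r1), to -0.16 (Tac2) against zQ175:CK2a'(+/-), to 0.06 (Tac2) for the averaged allele, to -0.49 (Cck) for CK2a'(+/-) against WT, and to 2.23 (Adcyap1) in the interaction. Both library exclusions were chosen after seeing the data.

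On leaving out 1 library the sign changed for these results. Between zQ175 and WT the ranges were -0.18 to 0.12 (Tacr3), -0.55 to 0.08 (Nts), -0.72 to 0.21 (Cartpt), -0.51 to 2.65 (Adcyap1) and -0.05 to 0.10 (Adcyap1r1). Between zQ175:CK2a'(+/-) and WT they were -0.02 to 0.18 (Tacr1), -0.13 to 0.24 (Nts) and -0.59 to 0.04 (Adcyap1). Between zQ175 and zQ175:CK2a'(+/-) they were -0.06 to 0.17 (Tac1), -0.29 to 0.42 (Tac2), -0.60 to 0.01 (Nts) and -0.18 to 2.91 (Adcyap1). Between CK2a'(+/-) and WT they were -0.18 to 0.22 (Tac1) and -0.39 to 0.56 (Cck). For the averaged allele they were -0.61 to 0.06 (Tac2), -0.03 to 0.15 (Tacr3), -0.22 to 0.37 (Cartpt) and -0.01 to 0.13 (Adcyap1r1). In the interaction they were -0.25 to 0.15 (Tac1), -0.06 to 0.31 (Tacr3), -1.01 to 2.26 (Adcyap1) and -0.12 to 0.15 (Adcyap1r1).

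Deviations of same-numbered libraries of different groups correlated at r from -0.136 to 0.120 (24 pairs, 2 over 0.1). For libraries of different number r ran from -0.234 to 0.187 (96 pairs, 13 over 0.1). These values over all genes gave no sign of a pairing, and they cannot show one limited to some of the genes. With the replicate block 0 members passed in any comparison, and the sign changed for Tac2 between zQ175 and zQ175:CK2a'(+/-) (-0.06) and for Adcyap1 in the interaction (1.11).

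Over all genes tested the number of calls depended on the setting. Between zQ175 and WT it was 230, against 847 by DESeq2, 451 without the filter, 98 with the block, 0 with the compared groups alone, 0 without zQ175 replicates 1 and 5, and 1 without the libraries with choroid plexus transcripts. For the averaged allele it was 1024, against 1507 by DESeq2, 997 without the filter, 1186 with the Xist covariate, 519 with the block and 126 without the libraries with choroid plexus transcripts. Leaving out 1 library gave 0 (without WT replicate 3 or zQ175 replicate 5) to 587 (without WT replicate 2) between zQ175 and WT, and 348 (without CK2a'(+/-) replicate 3) to 1161 (without WT replicate 2) for the averaged allele. The former count was also moved by over 1.5 times without WT replicate 1 (10), zQ175 replicate 1 (77) or 3 (133), CK2a'(+/-) replicate 2 (153) and zQ175:CK2a'(+/-) replicate 1 (150) or 3 (145), and the latter without WT replicate 1 (678) or 3 (618) and CK2a'(+/-) replicate 2 (673). Between zQ175 and zQ175:CK2a'(+/-) it was 3, against 39 by DESeq2, 51 without the filter and 1 with the block. Between zQ175:CK2a'(+/-) and WT it was 3, against 124 by DESeq2 and 85 without the filter, between CK2a'(+/-) and WT 3, against 11 and 19, and in the interaction 1, against 15 and 10. With 1 library left out these 4 counts were 1 to 6, 1 to 34, 1 to 9 and 0 to 2. Few reads limit the precision of Cckbr, Tacr3, Tac2, Cartpt and Nts, with at most 100, 124, 141, 178 and 202 in a library, and of Adcyap1, with at most 31 outside zQ175 replicate 1.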
